A study of Mus musculus with 24 samples.

Results

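The comparison is of liver RNA from mice on a high-fat diet (HFD) with liver RNA from mice on a normal diet (control), described across all genes. Its members are 7 of the 12 long RNA libraries of the series, which holds 24 libraries with the small RNA: HFD 1, 2, 3 and 4 and control 1, 3 and 4. The libraries were chosen by the level of Alb, the albumin gene of liver cells, which had to reach 1000 CPM, counts per 1000000 counts of the library total. Alb was at 58144, 92208 and 72770.3 CPM in control 1, 3 and 4 and at 67648, 69855, 35054 and 76292 CPM in HFD 1, 2, 3 and 4. It was at 46.4 CPM in control 2, far below the limit, so that this library was left out and not taken as liver RNA. HFD 3 was the member nearest to the limit, and the level of Alb is a description here. All mice were male C57BL/6 labelled WT, and no transgene or deletion is named. Each group of the study had 9 mice, and high-fat feeding lasted 12 weeks before gavage began. Mice of a further group, also on high-fat diet, were gavaged with HQHF (Huatanqushihuoxue Formula). Its 3 libraries with Alb above the limit (HFD plus HQHF 1, 2 and 4) enter the filter on low counts, the scaling and the estimate of the spread. They are not part of the contrast of HFD with control. The composition of the diets, the age of the mice and the time from the first gavage to tissue collection do not appear in the labels. Each library has a batch code of its own, taken to be a separate mouse, so no batch can be told apart from a mouse.

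A diet rich in fat loads hepatocytes, the metabolic cells of the liver, with triglyceride. Hepatocytes take up, burn, store and export fatty acids, break down amino acids, make bile acids, detoxify foreign compounds and secrete most plasma proteins. In longer or more severe fatty liver disease, resident macrophages (Kupffer cells) are joined by macrophages that come from blood monocytes, and stellate cells turn into cells that lay down collagen. Tissue RNA mixes all these cells, so fewer cells of a type and less RNA per cell cannot be told apart.

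Promoters are shown first for 3 genes higher and 3 genes lower in HFD, those with the smallest p among the genes named below whose window held a motif of those marked. Each is a RefSeq window of the build GRCm38.p6 from 250 bases before to 50 bases after the gene's start, read along the gene. They are Mmp12, chr9:7344147-7344446 on the plus strand, Anxa2, chr9:69453433-69453732 on the plus strand, Capg, chr6:72549397-72549696 on the plus strand, Ugt2a3, chr5:87337146-87337445 on the minus strand, Tspan33, chr6:29693964-29694263 on the plus strand and G6pc, chr11:101367466-101367765 on the plus strand. Mmp12 encodes the elastase of macrophages, Anxa2 a membrane-binding annexin, Capg an actin-capping protein, Ugt2a3 a glucuronosyltransferase, Tspan33 a tetraspanin and G6pc the glucose-6-phosphatase of glucose output. Capitals mark matches, on either strand, of 11 of the 13 motifs searched. The GC box GGGCGG (35.9% of all windows in the RefSeq table) and the CCAAT box (37.9%) were searched but not marked, and they also stand in some of these windows.
Mmp12: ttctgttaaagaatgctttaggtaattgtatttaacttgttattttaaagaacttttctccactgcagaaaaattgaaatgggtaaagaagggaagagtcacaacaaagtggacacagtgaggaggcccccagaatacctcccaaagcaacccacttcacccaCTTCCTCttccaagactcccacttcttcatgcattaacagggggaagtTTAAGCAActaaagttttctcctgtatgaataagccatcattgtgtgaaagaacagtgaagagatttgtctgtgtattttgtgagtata
Anxa2: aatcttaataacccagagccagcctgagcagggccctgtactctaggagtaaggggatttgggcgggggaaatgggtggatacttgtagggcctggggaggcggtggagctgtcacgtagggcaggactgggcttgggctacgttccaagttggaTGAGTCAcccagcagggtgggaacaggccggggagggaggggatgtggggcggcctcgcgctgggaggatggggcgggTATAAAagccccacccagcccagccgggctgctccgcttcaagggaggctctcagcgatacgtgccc
Capg: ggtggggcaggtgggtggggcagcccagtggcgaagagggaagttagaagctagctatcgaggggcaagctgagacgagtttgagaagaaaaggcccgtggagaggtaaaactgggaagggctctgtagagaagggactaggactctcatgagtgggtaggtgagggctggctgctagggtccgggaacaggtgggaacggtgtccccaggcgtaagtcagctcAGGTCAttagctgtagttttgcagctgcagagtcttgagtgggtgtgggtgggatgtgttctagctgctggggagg
Ugt2a3: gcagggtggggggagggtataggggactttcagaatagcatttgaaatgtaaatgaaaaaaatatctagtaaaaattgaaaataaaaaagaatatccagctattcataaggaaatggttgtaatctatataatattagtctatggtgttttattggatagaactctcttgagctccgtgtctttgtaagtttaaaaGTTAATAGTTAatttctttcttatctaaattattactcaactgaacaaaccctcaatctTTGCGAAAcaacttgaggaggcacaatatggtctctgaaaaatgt
Tspan33: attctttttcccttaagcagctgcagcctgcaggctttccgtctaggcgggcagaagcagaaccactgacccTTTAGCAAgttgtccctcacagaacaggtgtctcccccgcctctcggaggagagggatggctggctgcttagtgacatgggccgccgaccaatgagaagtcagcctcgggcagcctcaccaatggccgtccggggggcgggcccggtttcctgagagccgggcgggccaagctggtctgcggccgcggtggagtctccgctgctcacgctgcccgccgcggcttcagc
G6pc: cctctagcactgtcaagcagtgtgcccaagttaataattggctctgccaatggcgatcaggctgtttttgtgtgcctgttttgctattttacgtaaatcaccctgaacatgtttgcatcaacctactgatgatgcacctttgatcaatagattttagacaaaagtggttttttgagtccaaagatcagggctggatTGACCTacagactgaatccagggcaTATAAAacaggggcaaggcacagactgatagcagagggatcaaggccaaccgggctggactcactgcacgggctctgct
The Mmp12 window held a GAGGAAG motif of ETS factors such as PU.1 (found in 13.5% of all windows in the RefSeq table) and a TTGCNNAA motif of C/EBP factors (10.8%). The Anxa2 window held a TGANTCA motif of AP-1 (7.93%) and a TATAAA box (14.2%), and the Capg window an AGGTCA motif of nuclear receptors (16%). The Ugt2a3 window held an HNF1 motif, named for a factor of hepatocytes (0.322%), and a C/EBP motif, the Tspan33 window a C/EBP motif, and the G6pc window an AGGTCA motif and a TATAAA box. None of the marked matches overlapped another. The marked motifs without a match in these 6 windows were the CRE (1.88%), an ISRE core (3.49%), CAAAGTNCA of HNF4 (1.41%), the CACGTG E-box (7.24%) and TGTTTAC of FOXA factors (3.55%). A match says only that these letters stand in the window. Motif shares were not compared between gene groups, because 76% of the genes called at least 2-fold higher and 76.1% of those called at least 2-fold lower had a matched window, under the 80% set for such a comparison.

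Library totals ran from 36198931 to 46454404 counts. The 100 entries with the most counts held 51.6 to 55.9% of the counts in the controls and 40.4 to 46.7% in HFD, and 11003 to 11147 entries reached 1 CPM in the controls against 12080 to 12822 in HFD. TMM scaling, which assumes that most genes do not change, gave factors of 0.763 to 0.892 to the controls and 1.20 to 1.42 to HFD. Below, CPM are relative to the TMM-scaled library size unless library totals are named, and they are not scaled by gene length. Values are given in the order control 1, 3 and 4, then HFD 1, 2, 3 and 4. A log2 fold change is HFD against control with its SE after ±. Some libraries also held RNA of other tissues, and the genes listed for this were chosen after their values were seen. HFD 3 held 1197 CPM of its total in Hsd3b1, 961 in Star, 787 in Cyp21a1 and 621 in Cyp11b1, steroid-making genes of the adrenal cortex, and 355 in Chgb and 53.9 in Th, genes of the adrenal medulla. In the other 6 libraries the highest values of these genes were 0.0431, 0.983 and 1.91 CPM for the first 3, with no read of Cyp11b1, Chgb or Th, which allows up to 3 reads per library. The 9 adrenal cortex genes listed made up 0.461% of its counts and the 5 medulla genes 0.0785%, and the fat cell gene Adipoq was at 41.2 CPM, beside at most 0.858 CPM. Control 1 held pancreatic genes, with 1945 CPM of the amylase gene Amy2a4 beside at most 8.05 CPM in the other 6. HFD 1 held 1362 CPM of Dmbt1 and 54.3 CPM of Ltf, secreted defence proteins of mucosal epithelium, where the others reached 51.7 and 0.861 CPM. The part of this RNA in the results was not tested by tissue. Counts over all genes are given below also without control 1 and HFD 3 together and without HFD 1 alone.

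Across all genes, the share called higher in HFD was largest among genes of low abundance and the share called lower among abundant ones. Of 13832 genes tested, 2257 were called higher (16.3%) and 1368 lower (9.89%) by edgeR's quasi-likelihood test, with p adjusted by Benjamini-Hochberg and a call under 0.05. The rises were larger: 1750 genes rose at least 2-fold, 308 at least 8-fold and 45 at least 32-fold, with a median log2 fold change of 1.57, while 335, 24 and 6 genes fell by as much and the median fall was 0.72 on the log2 scale. The 4 HFD libraries all lay above the 3 controls in 2879 genes (20.8%) and all below them in 2198 (15.9%). Of the calls, 2110 higher and 1299 lower genes showed no such overlap. The split rested on the scaling. With library totals 7041 genes were called higher (50.9%) and 154 lower (1.11%), so that 97.9% of calls were higher against 62.3% with TMM and 74.7% with upper quartile factors, and over all genes the median log2 fold change moved from 0.06 to 0.66. Changes are therefore given relative to TMM. All 154 genes lower with library totals were among those called lower with TMM, and all 2257 higher ones with TMM were also higher with library totals. This nesting goes with the upward shift of the log2 fold changes under library totals and is no support for the calls. Leaving out control 1, 3 or 4 gave 951, 862 or 1193 genes higher and 617, 895 or 885 lower, and leaving out both control 1 and HFD 3 gave 1453 and 916, of which 1324 and 788 were called the same way with all 7. Without HFD 1, the library with mucosal genes, 1733 were higher and 922 lower. The fit of the 7 libraries alone, without the HQHF libraries, gave 1646 genes higher and 1221 lower of 13746 tested.

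Abundance and direction went together. Among genes with a mean under 1 CPM over the 7 libraries, 26.3% were called higher and 1.10% lower, and among those of 1 to 10 CPM 25.98% and 2.59%. A gene of low abundance could pass the filter on low counts through the group where it was high, and the part of this in these shares was not tested. Of the 6070 genes between 10 and 100 CPM, 524 were called higher (8.63%) and 802 lower (13.2%), the largest count of falls in any range. Between 100 and 1000 CPM the shares were 2.02% and 34.4%, and of the 110 genes at 1000 CPM or more, 1 was called higher and 48 lower. The 1 that rose was Actb, the gene of cytoplasmic beta-actin. The 1368 genes called lower held 35.6 to 41.2% of the counts in the controls and 22.5 to 28.5% in HFD, without overlap, and the 2257 called higher held 1.04 to 1.19% and 3.10 to 4.84%. These shares were chosen by the calls and are a description.

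**Figure D1:**
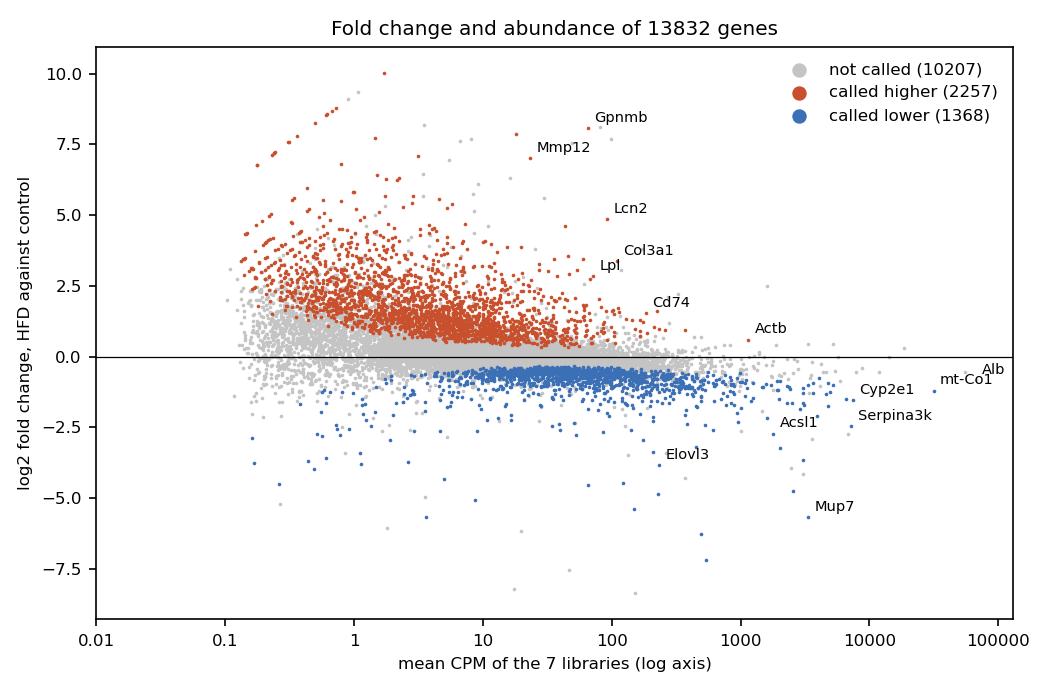
Each point is a gene, with its mean CPM over the 7 libraries on a log axis and its log2 fold change, HFD against control, coloured by the call of edgeR at an adjusted p under 0.05. Of genes under 1 CPM 26.3% were called higher, and of genes at 1000 CPM or more 43.6% were called lower.

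The libraries separated by diet on the first principal component, which held 54.9% of the variance: the controls scored -68.1 to -60.7 and the HFD libraries 22.4 to 84.6, lowest in HFD 2 and highest in HFD 4. The second component (15.5%) set HFD 3, the library with adrenal RNA, at -65.8 apart from the other 6, at -8.53 to 35.3. The root mean square difference in log2 CPM was 0.545 to 0.757 between controls, 0.589 to 0.946 between HFD libraries and 0.915 to 1.41 between the groups, so that the last 2 ranges overlapped.

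**Figure D2:**
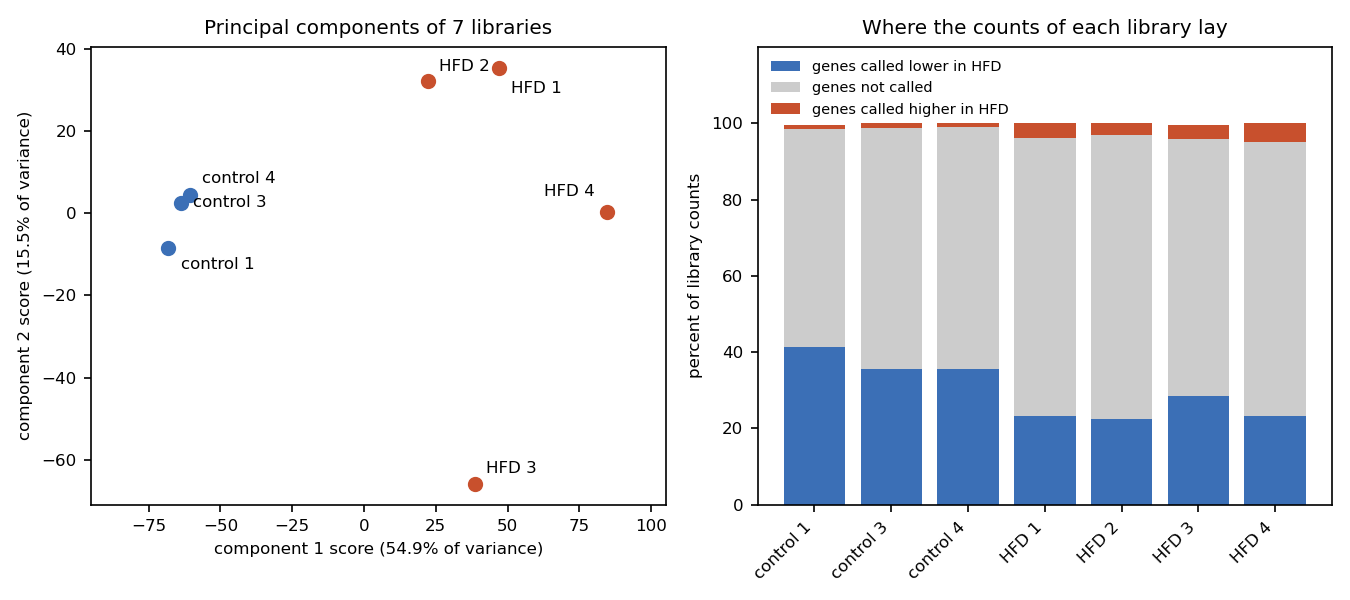
Left, scores of the 7 libraries on the first and second principal components of log2 CPM over 13832 genes. Right, the percent of each library's counts in genes called lower, not called and called higher. The controls sit together on the left at -68.1 to -60.7, and genes called lower take 35.6 to 41.2% of their counts beside 22.5 to 28.5% in HFD.

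Genes named here and below by fold, p or CPM difference were picked among called genes without overlap between groups. Lack of overlap in them follows from this choice and is no result. Among them, the largest rises at 10 CPM or more were in Gpnmb, Mmp12, Lcn2, Cx3cr1 and Col1a1, and the smallest p among rises was that of Mmp12. Mmp12 (ENSMUSG00000049723), the macrophage elastase whose promoter is shown above, was at 0.315, 0.308 and 0.317 CPM in control and 59.1, 31.1, 35.7 and 36.8 CPM in HFD (log2 fold change 7.01 ± 0.33, adjusted p = 4.22e-06). The controls lay within a narrow range and no HFD library came near it. Gpnmb (ENSMUSG00000029816), a membrane glycoprotein that macrophages make when loaded with lipid, was at 0.919, 0.154 and 0.159 CPM in control and 131, 54.6, 93.5 and 177 CPM in HFD (log2 fold change 8.08 ± 0.87, adjusted p = 0.00146). HFD 2 was the lowest and HFD 4 the highest of the HFD libraries for it, as also for Itgax (ENSMUSG00000030789), the CD11c integrin, at 1.47, 0.743 and 0.825 CPM in control and 21.4, 10.3, 11.8 and 24.03 CPM in HFD (log2 fold change 4.05 ± 0.39, adjusted p = 0.000646). Cx3cr1, the fractalkine receptor of monocytes, showed the same order, at 0.735, 0.282 and 0.413 CPM in control and 11.5, 6.58, 7.55 and 23.5 CPM in HFD (log2 fold change 4.68 ± 0.59). Among the genes with the smallest p, Clec7a, a receptor for fungal glucans, was at 1.34, 1.59 and 1.49 CPM in control and 15.7, 7.06, 8.96 and 12.03 CPM in HFD (log2 fold change 2.89 ± 0.30). The groups did not overlap in any of these genes. Lgals3, the lectin galectin 3 of macrophages, was at 6.30, 5.30 and 7.36 CPM in control and 71.8, 31.9, 49.1 and 52.3 CPM in HFD (log2 fold change 3.02 ± 0.28). Capg, an actin-capping protein of macrophages, was at 2.47, 2.10 and 2.79 CPM in control and 25.8, 12.1, 15.5 and 25.9 CPM in HFD (log2 fold change 3.01 ± 0.29). Anxa2, a calcium-dependent membrane-binding protein, was at 10.8, 7.87 and 10.7 CPM in control and 74.8, 58.6, 59.6 and 102 CPM in HFD (log2 fold change 2.92 ± 0.23). In these 3 genes, too, the lowest HFD library stood well above the highest control.

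Several genes of the extracellular matrix rose too, with a wide range between HFD libraries. Col1a1 (ENSMUSG00000001506), a chain of type I collagen, was at 2.76, 1.87 and 4.44 CPM in control and 97.9, 35.6, 17.3 and 144 CPM in HFD (log2 fold change 4.61 ± 0.91, adjusted p = 0.00978). Col3a1 (ENSMUSG00000026043), the chain of type III collagen, was at 17.3, 13.8 and 20.7 CPM in control and 260.04, 104, 47.2 and 303 CPM in HFD (log2 fold change 3.37 ± 0.60, adjusted p = 0.00634). HFD 3 was the lowest and HFD 4 the highest for both, and no HFD library reached down to the controls. Eln, which encodes elastin, was at 1.10, 0.769 and 1.21 CPM in control and 13.2, 8.62, 3.18 and 44.01 CPM in HFD (log2 fold change 4.07 ± 0.86). Svep1, a large adhesion protein of the matrix, was at 2.49, 1.36 and 1.40 CPM in control and 17.04, 11.97, 9.31 and 64.3 CPM in HFD (log2 fold change 3.87 ± 0.79). HFD 4 was the highest of the 7 libraries in both. Aebp1, a collagen-binding protein, was at 1.29, 1.08 and 1.27 CPM in control and 8.82, 7.45, 45.7 and 15.4 CPM in HFD (log2 fold change 3.99 ± 0.70). Gprc5b, an orphan receptor, was at 0.657, 0.410 and 1.08 CPM in control and 2.25, 1.75, 27.9 and 14.2 CPM in HFD (log2 fold change 4.02 ± 1.04). For these 2 the highest library was HFD 3, which held adrenal and fat RNA, and the part of that RNA was not tested. Dcn, the proteoglycan decorin, rose less in fold, at 129, 152 and 117 CPM in control and 271, 234, 193 and 395 CPM in HFD (log2 fold change 1.04 ± 0.24). The controls were all below the lowest HFD library. Leaving out 1 library ended the call of Gprc5b (control 1, 3 or 4, adjusted p up to 0.086) and Dcn (control 1 or 4, adjusted p up to 0.052). The call of Gprc5b ended without both control 1 and HFD 3.

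The largest gains in CPM were in Actb, Lcn2, Actg1, Cd74, Ahnak, Tmem176b and the matrix genes Col3a1 and Dcn given above. Actb (ENSMUSG00000029580) was at 811, 822 and 1033 CPM in control and 1592, 1295, 1225 and 1254 CPM in HFD (log2 fold change 0.59 ± 0.19, adjusted p = 0.0414). Its near relative Actg1, gamma-actin, was at 150.2, 164 and 138 CPM in control and 259, 193, 373 and 347 CPM in HFD (log2 fold change 0.96 ± 0.24). The HFD libraries were above the controls in both, and reads of such similar genes can be split uncertainly between them. Cd74, the invariant chain of MHC class II, was at 92.2, 82.03 and 89.5 CPM in control and 375, 157, 142 and 352 CPM in HFD (log2 fold change 1.54 ± 0.35), with HFD 1 and 4 above HFD 2 and 3. Lcn2, the iron-siderophore binder lipocalin 2, was at 6.62, 3.08 and 6.60 CPM in control and 175, 83.2, 178 and 196 CPM in HFD (log2 fold change 4.86 ± 1.48, adjusted p = 0.0412). HFD 2 was the lowest HFD library for it and far above the controls, and in HFD plus HQHF 1, 2 and 4, which share the spread estimate, Lcn2 was at 388, 3.55 and 16.03 CPM. Ahnak, a giant scaffold protein, was at 126, 82.2 and 105 CPM in control and 326, 242, 247 and 452 CPM in HFD (log2 fold change 1.60 ± 0.25). Tmem176b, a membrane protein of myeloid cells, was at 183, 162 and 167 CPM in control and 372, 309, 220.03 and 401 CPM in HFD (log2 fold change 0.93 ± 0.26). Of the less abundant genes with a small p, Epb41l1, a membrane skeleton protein, was at 3.65, 6.10 and 4.28 CPM in control and 18.9, 23.2, 16.6 and 21.4 CPM in HFD (log2 fold change 2.10 ± 0.21). Maged2, a protein of the MAGE family, was at 2.73, 4.18 and 3.36 CPM in control and 13.3, 10.9, 15.4 and 16.1 CPM in HFD (log2 fold change 2.02 ± 0.21). All HFD libraries were above all controls in each of these genes. Removal of a single library ended the call of Actb (control 1, 3 or 4 or HFD 1, 2 or 4, adjusted p up to 0.182), Actg1 (control 1, 3 or 4, adjusted p up to 0.0644), Cd74 (control 3, adjusted p up to 0.0523) and Lcn2 (control 1, 3 or 4 or HFD 1, 2, 3 or 4, adjusted p up to 0.138). With 1 of the bracketed libraries left out, the call was lost for Tmem176b (control 1, 3 or 4 or HFD 1 or 4, adjusted p up to 0.103). Calls of Actb, Actg1 and Lcn2 ended without both control 1 and HFD 3. The call of Actb was lost with RLE factors or in the fit of the 7 libraries alone. Actb and Lcn2 were no longer called with no filter.

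Among falls at 10 CPM or more, 1 gene family led. The major urinary protein (Mup) genes, which encode pheromone carriers secreted by the male mouse liver, took 8 of the 10 places among the largest falls. Mup7 (ENSMUSG00000073842) was at 13706, 4487 and 4698 CPM in control and 191, 92.6, 311 and 0.241 CPM in HFD (log2 fold change -5.68 ± 1.49, adjusted p = 0.0243). Mup15 was at 3022, 451 and 291 CPM in control and 6.45, 1.62, 25.9 and 0.103 CPM in HFD (log2 fold change -7.21 ± 1.74). Mup12 was at 596, 183 and 235 CPM in control and 10.9, 3.47, 17.4 and 0.0860 CPM in HFD (log2 fold change -5.41 ± 1.24). HFD 4 was almost without them, control 1 had more than the other controls, and no HFD library reached a control. In the Mup list 10 of 21 tested members (22 measured) fell and 0 rose (median -3.93, 2 to 5 fell without control 1 or HFD 1 or 2, 17 fell without HFD 4), and with library totals 8 fell and 0 rose (median -3.32). Mup genes are nearly identical in sequence, so the share of each member is uncertain. Elovl3, a fatty acid elongase, was at 629, 398 and 469 CPM in control and 81.2, 39.98, 17.9 and 1.20 CPM in HFD (log2 fold change -3.83 ± 1.0), again lowest in HFD 4. Ugt2b38, a glucuronosyltransferase with close relatives, was at 49.2, 3.15 and 5.71 CPM in control and 1.77, 0.404, 0.118 and 0 CPM in HFD (log2 fold change -5.07 ± 1.37). Its highest control was control 1, and HFD 4 had no read, which allows up to 3. Removal of a single library ended the call of Mup7 (control 1 or HFD 1 or 2, adjusted p up to 0.0691), Mup15 (control 1, adjusted p up to 0.0561), Elovl3 (control 1, 3 or 4 or HFD 2 or 3, adjusted p up to 0.0663) and Ugt2b38 (control 1 or HFD 2 or 4, adjusted p up to 0.129). The calls of Mup7, Elovl3 and Ugt2b38 were lost without both control 1 and HFD 3. Mup7 and Ugt2b38 were no longer called in the fit of the 7 libraries alone. The call of Ugt2b38 ended with no filter.

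Falls with the smallest p were more even between libraries, as a choice by p favours genes of little spread within groups. Ugt2a3 (ENSMUSG00000035780), which adds glucuronic acid to bile acids and other compounds, was at 298, 296 and 277 CPM in control and 82.6, 72.5, 60.3 and 71.3 CPM in HFD (log2 fold change -2.02 ± 0.15, adjusted p = 0.000146). Ces1d (ENSMUSG00000056973), a carboxylesterase that also splits triglyceride, was at 885, 919 and 1176 CPM in control and 175, 205, 159 and 203 CPM in HFD (log2 fold change -2.42 ± 0.20, adjusted p = 0.000278). Ces1e was at 147, 147 and 191 CPM in control and 49.2, 39.8, 40.5 and 33.6 CPM in HFD (log2 fold change -1.99 ± 0.19). In each of these genes the HFD libraries lay close together, far below the controls. G6pc, the last enzyme of glucose output, was at 609, 760.2 and 596 CPM in control and 122, 187, 136 and 184 CPM in HFD (log2 fold change -2.06 ± 0.21). Acsl1, which activates fatty acids with coenzyme A, was at 4332, 2703 and 3439 CPM in control and 440.2, 466, 647 and 556 CPM in HFD (log2 fold change -2.73 ± 0.30). The lowest control of Acsl1 stood far above the highest HFD library. Aadat, of tryptophan and lysine breakdown, was at 178, 110.4 and 113 CPM in control and 36.3, 28.2, 38.1 and 40.4 CPM in HFD (log2 fold change -1.91 ± 0.20). Cyp3a25, a drug-metabolising P450, was at 717, 864 and 715 CPM in control and 211, 276, 192 and 215 CPM in HFD (log2 fold change -1.78 ± 0.18). Tspan33 was at 13.7, 12.4 and 12.6 CPM in control and 5.19, 4.49, 3.76 and 4.87 CPM in HFD (log2 fold change -1.49 ± 0.15). The groups did not overlap in any of the 8, by the choice of genes.

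The largest losses in CPM were in Serpina and Mup genes, Cyp2e1, Mat1a and mt-Co1. Serpina3k (ENSMUSG00000058207), a plasma serine protease inhibitor, was at 17934, 9569 and 13324 CPM in control and 3311, 2671, 2676 and 1279.6 CPM in HFD (log2 fold change -2.45 ± 0.37, adjusted p = 0.00323). Serpina1e (ENSMUSG00000072849), an alpha-1-antitrypsin gene, was at 6451, 4858 and 8097 CPM in control and 791, 492, 417 and 367 CPM in HFD (log2 fold change -3.65 ± 0.45, adjusted p = 0.0015). Its neighbour in sequence Serpina1c was at 7896, 7138 and 8746 CPM in control and 3593, 2982, 1407 and 1420.1 CPM in HFD (log2 fold change -1.75 ± 0.35). HFD 4 was the lowest for the first 2, and the antitrypsin genes share much sequence, so the share of each is uncertain. Cyp2e1, the ethanol-oxidising P450 around the central vein, was at 14030.1, 10275 and 11599 CPM in control and 4547, 3428, 6569 and 1826 CPM in HFD (log2 fold change -1.55 ± 0.37). Mat1a, which makes the methyl donor S-adenosylmethionine in hepatocytes, was at 11799, 8817 and 10646 CPM in control and 1945, 2754, 4756 and 5217 CPM in HFD (log2 fold change -1.51 ± 0.38). Among HFD libraries, HFD 4 had the least Cyp2e1 and the most Mat1a. The mitochondrial mt-Co1 was at 39985, 41217 and 58593 CPM in control and 19993, 19836, 23729.6 and 17200.1 CPM in HFD (log2 fold change -1.21 ± 0.31). Alb, a description here, was at 67607, 103384 and 95398 CPM in control and 56319, 57339, 24873 and 60926 CPM in HFD, with all HFD libraries below all controls, whereas the groups overlapped by library totals. The call was lost without 1 library for Cyp2e1 (control 1, adjusted p up to 0.0574), Mat1a (control 1 or 4, adjusted p up to 0.0616) and mt-Co1 (control 4, adjusted p up to 0.0739). Cyp2e1, Mat1a and mt-Co1 were no longer called with library totals.

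**Figure D3:**
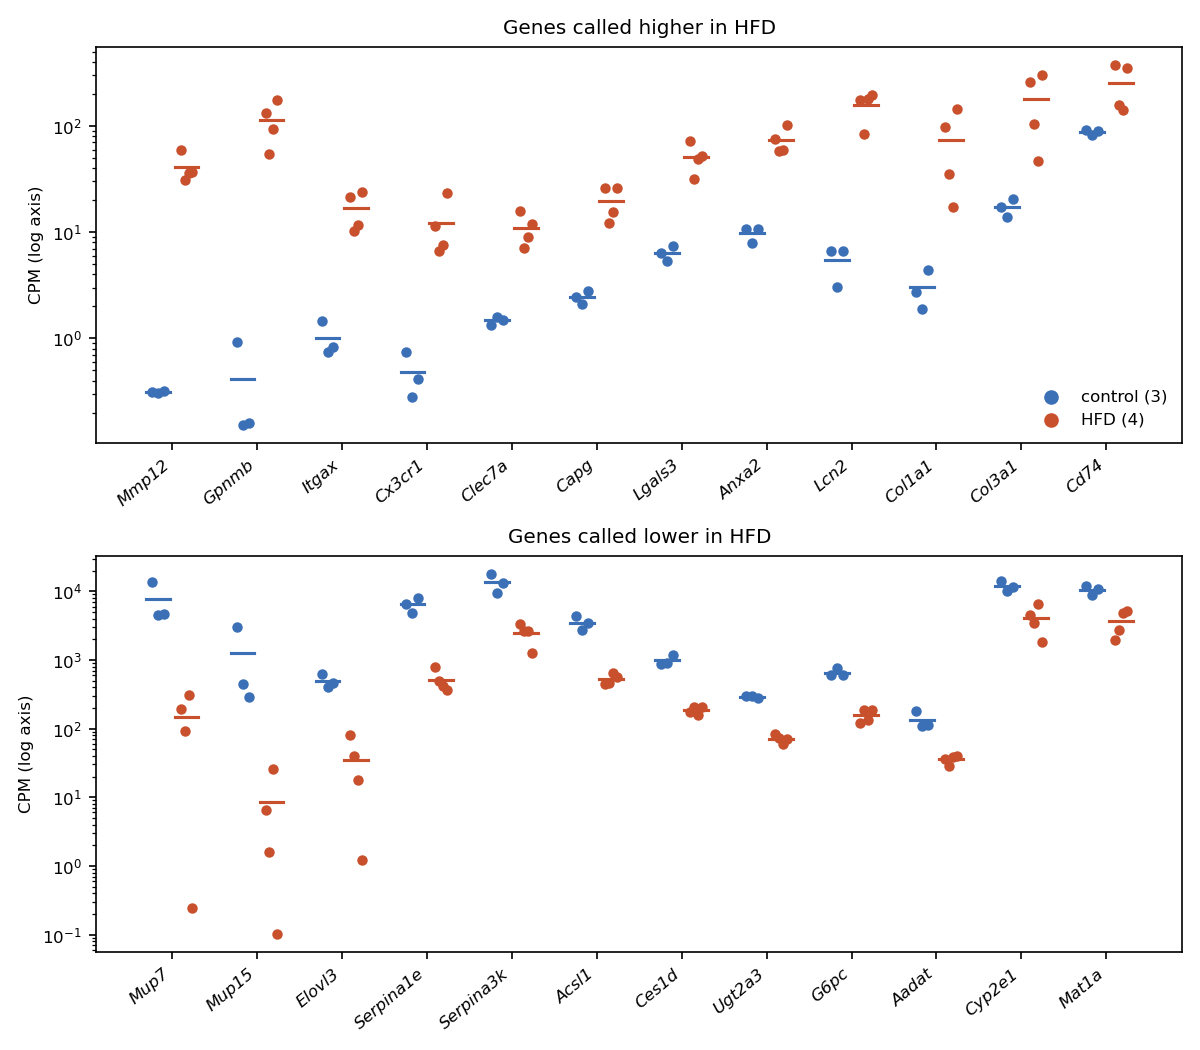
CPM on a log axis of 12 genes called higher and 12 called lower, with 1 point per library, controls in blue (3) and HFD in red (4), and a line at each group's mean. No HFD point reaches a control point of the same gene, because the genes were picked among those without overlap. Mup7 in HFD 4, at 0.241 CPM, lies far below the other HFD libraries.

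Gene lists, set out by role, describe how far each function moved, to be read against 16.3% higher and 9.89% lower among all genes. A list near these shares moved no more than genes at large. The shares also went with abundance, as given above, up to 26.3% higher under 1 CPM and 43.6% lower at 1000 CPM or more. Lists were not matched for abundance, so function and abundance cannot be told apart here. In every list below with more rises than falls, library totals gave at least as many rises, which goes with their upward shift. Scaling is therefore given only for the other lists and where the median changed sign. The median of a list is that of its members' log2 fold changes. Where leaving out 1 library moved the larger count of a list, or another count of at least 3, by over 1.5 times, the moved counts stand beside it. Among the lists of functions with at least 10 tested members, proteoglycans and matricellular proteins had the largest surplus of rises and carboxylesterases the largest surplus of falls.

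**Figure D4:**
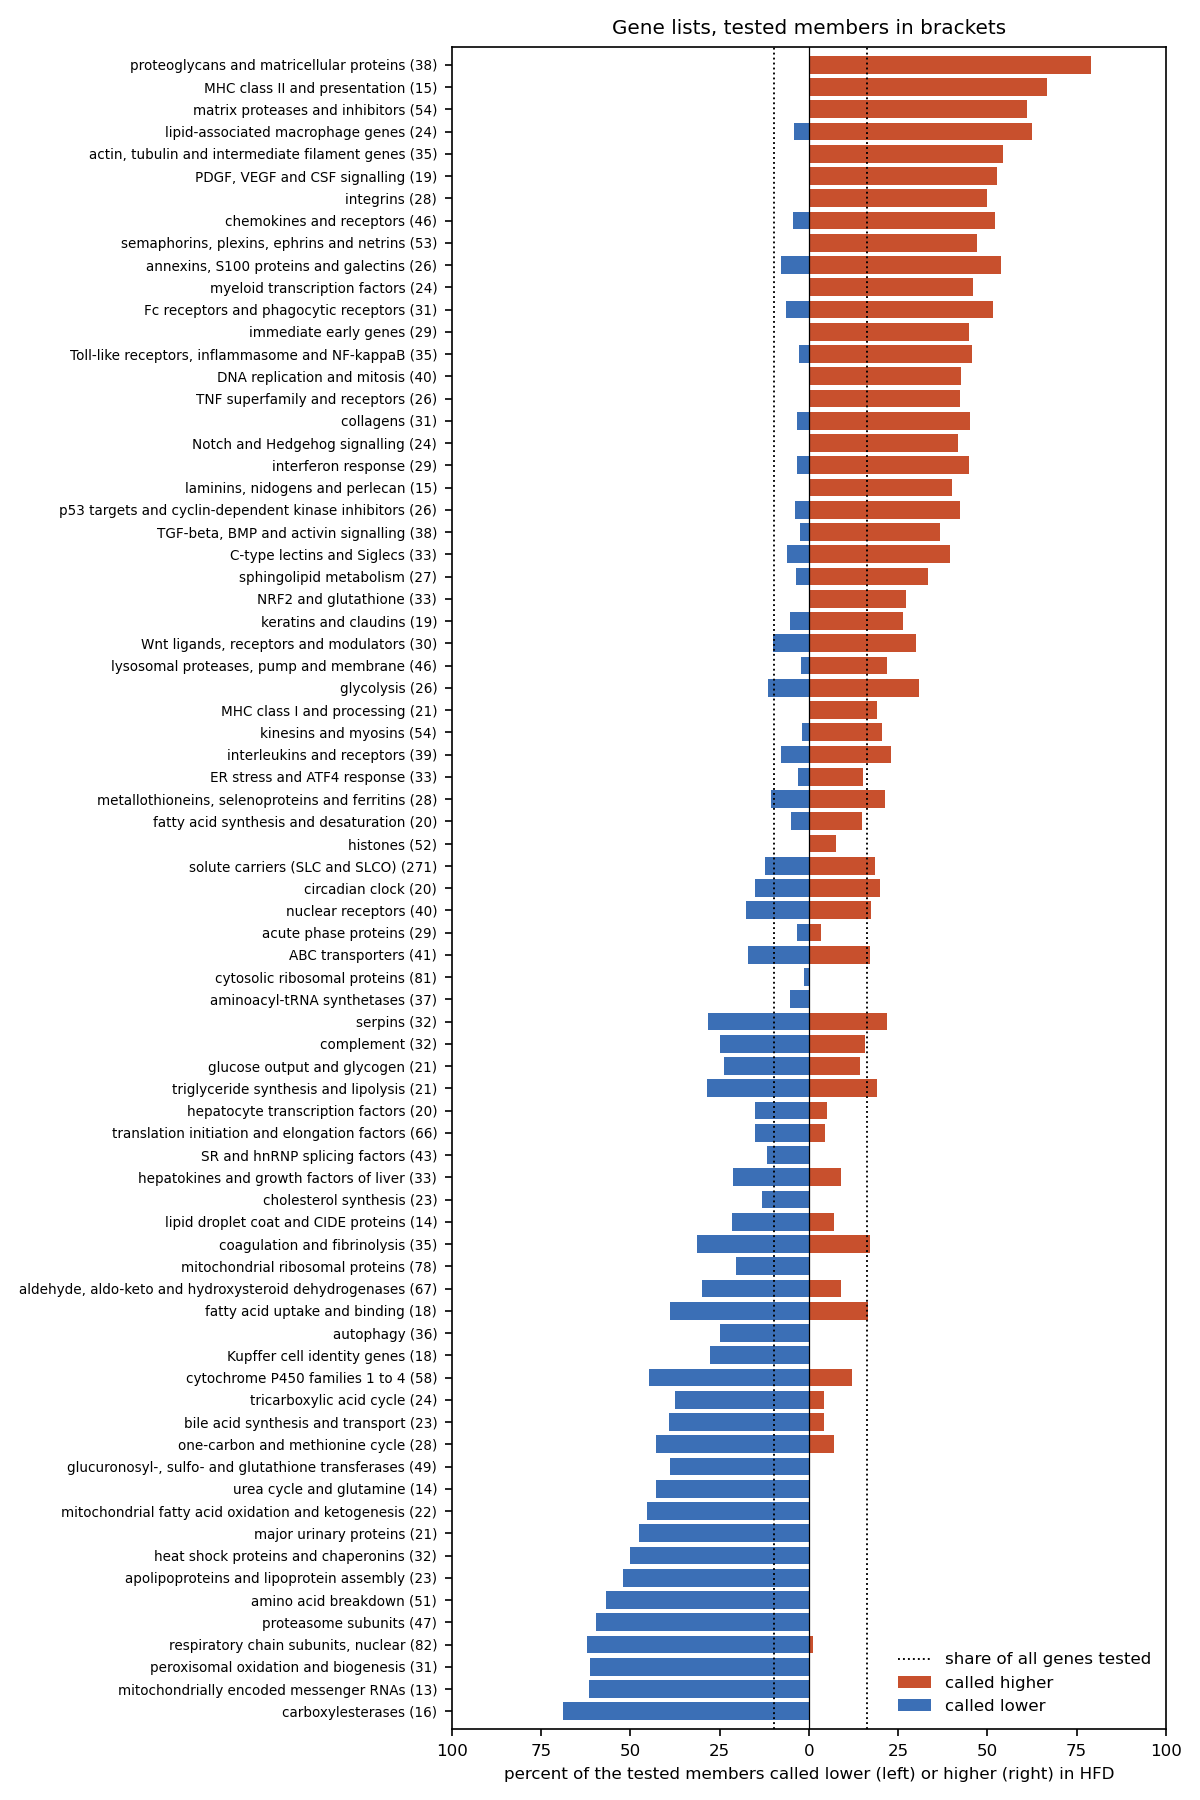
Each bar gives the percent of a list's tested members (number in brackets) called higher, to the right, or lower, to the left, in HFD, with dotted lines at the shares of all genes, 16.3% and 9.89%. Cell type markers and lists of fewer than 10 tested members are not drawn. Lists were not matched for abundance. Lists are sorted by the difference of both shares, from proteoglycans and matricellular proteins, with 30 of 38 higher, to carboxylesterases, with 11 of 16 lower.

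Genes that burn and export fat were lower. Peroxisomes shorten very long and branched fatty acids, and in their list 19 of 31 tested members fell and 0 rose (median -0.85), and with library totals 5 fell and 3 rose (median -0.24). Hacl1, which cleaves branched fatty acids, fell from 714 to 137 CPM (log2 fold change -2.38), Abcd3, which carries fatty acids into the peroxisome, from 788 to 268 CPM (-1.56), Cat, catalase, from 2848 to 1244 CPM (-1.20), and the peroxisome-forming Pex11a from 208 to 66.2 CPM (-1.65). Of mitochondrial fatty acid oxidation and ketone body genes 10 of 22 tested members fell and 0 rose (median -0.77, 5 to 6 fell without control 1 or 4, 18 fell without HFD 3), and with library totals 1 fell and 1 rose (median -0.14). Cpt2, the inner carnitine transferase, fell from 252 to 92.5 CPM (-1.45) and the carnitine carrier Slc25a20 from 269 to 107 CPM (-1.33), while Cpt1a, the outer transferase, had a log2 fold change of -0.91 (adjusted p = 0.117). Of the apolipoproteins and lipoprotein assembly factors 12 of 23 tested members fell and 0 rose (median -0.69), and with library totals 4 fell and 2 rose (median -0.10). Mttp, which loads lipid onto apolipoprotein B for export, fell from 660.2 to 252 CPM (-1.39), Apoa2, of high-density lipoprotein, from 5493 to 2221 CPM (-1.31), and Apoc3 and Angptl4, both brakes on lipoprotein lipase, from 1233 to 533 CPM (-1.21) and from 246 to 69.2 CPM (-1.83). Apob had a log2 fold change of -0.53 (adjusted p = 0.284) and Apoe a log2 fold change of -0.56 (adjusted p = 0.106). Calls of Cat and Slc25a20 ended with library totals.

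Genes for uptake, storage and synthesis of fat had calls both ways, in part at the shares of all genes. The rises in the uptake, triglyceride and fatty acid synthesis lists lay near the share of all genes. The falls in the cholesterol synthesis list also lay near that of all genes, and the rises among lipid droplet genes lay under it. In the uptake list 7 of 18 tested members (20 measured) fell and 3 rose (median -0.12, 3 to 4 fell without control 1 or 4 or HFD 1, 0 rose without control 3 or 4), and with library totals 3 fell and 5 rose (median 0.49). Besides Acsl1, the hepatocyte acyl-CoA synthetases Slc27a2 from 1958 to 709.9 CPM (-1.46) and Slc27a5 from 1106 to 393 CPM (-1.49) fell, and Cd36, a fatty acid receptor also of macrophages, rose from 68.8 to 175 CPM (1.34). In the triglyceride list 6 of 21 tested members fell and 4 rose (median -0.29, 3 fell without control 1, 1 to 2 rose without control 1, 3 or 4), and with library totals 1 fell and 8 rose (median 0.30). Gpat4, of the first step of synthesis, fell from 404 to 148 CPM (-1.45), Dgat1, of the last, from 22.1 to 13.7 CPM (-0.69), and Lpl, lipoprotein lipase, rose from 15.8 to 114 CPM (2.84). Among lipid droplet genes 3 of 14 tested members (15 measured) fell and 1 rose (median -0.36, 1 fell without control 1), and with library totals 0 fell and 1 rose (median 0.23). Plin2, the main droplet coat of hepatocytes, was at 1458, 1251 and 1365 CPM in control and 359, 317, 732 and 752 CPM in HFD (-1.33), lowest in HFD 2, while Plin3 rose from 28.6 to 58.2 CPM (1.02). Of fatty acid synthesis and desaturation genes 3 of 20 tested members rose and 1 fell (median -0.13, 1 rose without control 1, 3 or 4), and with library totals 6 rose and 1 fell (median 0.46). Srebf1, the regulator of lipogenesis, was at 5.83, 19.5 and 22.6 CPM in control and 139.7, 188, 22.1 and 80.1 CPM in HFD (2.75), and the desaturase Scd2 rose from 5.23 to 44 CPM (3.07). Scd1, the desaturase typical of hepatocytes, was at 5525, 5165 and 10590.4 CPM in control and 1926, 1114, 418 and 333 CPM in HFD, a log2 fold change of -2.90 (adjusted p = 0.063). Its HFD libraries were all below the controls but spread over a wide range. Of cholesterol synthesis genes 3 of 23 tested members fell and 0 rose (median -0.06), and with library totals 2 fell and 3 rose (median 0.52), the falls being Hsd17b7 (-1.53), Tm7sf2 (-2.60) and Ebp (-0.99). Of sphingolipid genes 9 of 27 tested members (29 measured) rose and 1 fell (median -0.02, 3 to 4 rose without control 1 or 4), and with library totals 17 rose and 0 fell (median 0.57), with Sptlc2, of the first step, from 19.2 to 34.5 CPM (0.84). Of these calls, leaving out a library in brackets ended those of Cd36 (control 3 or 4, adjusted p up to 0.0773), Plin2 (control 1, 3 or 4 or HFD 1 or 2, adjusted p up to 0.0808) and Srebf1 (control 1, 3 or 4, adjusted p up to 0.0781). Dgat1, Plin2 and Ebp were no longer called with library totals. The call of Plin2 ended without both control 1 and HFD 3.

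Pathways of amino acids, methyl groups and bile acids were lower. In the amino acid breakdown list 29 of 51 tested members fell and 0 rose (median -0.73, 18 to 19 fell without control 1 or 3), and with library totals 7 fell and 1 rose (median -0.13). Afmid and Tdo2, of the tryptophan route like Aadat, fell from 133 to 41.5 CPM (-1.67) and from 1670.01 to 629 CPM (-1.41), Hpd, of tyrosine, from 3176 to 1109 CPM (-1.52), and Cdo1, of cysteine, from 1349 to 715 CPM (-0.92). In the urea cycle and glutamine list 6 of 14 tested members fell and 0 rose (median -0.82, 3 fell without control 4), and with library totals 1 fell and 1 rose (median -0.24). Arg1, arginase, fell from 1597 to 747 CPM (-1.10), Otc from 300.3 to 148 CPM (-1.02) and Asl from 1363 to 439.7 CPM (-1.63), while Cps1, the entry enzyme, had a log2 fold change of -0.86 (adjusted p = 0.169). Of one-carbon and methionine genes 12 of 28 tested members fell and 2 rose (median -0.78, 6 fell without control 1 or 4), and with library totals 4 fell and 8 rose (median -0.19). Gnmt, which disposes of excess methyl groups, fell from 1927 to 647 CPM (-1.57), Ahcy, the next step, from 3739.7 to 1209 CPM (-1.63), and Shmt1, of folate metabolism, from 179 to 84.4 CPM (-1.08). In the bile acid list 9 of 23 tested members fell and 1 rose (median -0.86), and with library totals 5 fell and 1 rose (median -0.25). Cyp8b1, which sets the share of cholic acid, fell from 1162 to 192 CPM (-2.60), Baat, which joins bile acids to taurine, from 295 to 129 CPM (-1.19), and Slc10a1, their uptake carrier, from 502 to 209.6 CPM (-1.26). Removal of a single library ended the call of Asl (control 4, adjusted p up to 0.0619). Cdo1, Arg1 and Otc were no longer called with library totals.

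Families that detoxify were lower, with exceptions. Among carboxylesterases 11 of 16 tested members (18 measured) fell and 0 rose (median -1.82), and with library totals 8 fell and 0 rose (median -1.21), with Ces2a from 431 to 41.1 CPM (-3.39) and Ces3b from 350.4 to 45.3 CPM (-2.95). Of the cytochrome P450 genes 26 of 58 tested members (71 measured) fell and 7 rose (median -0.83, 14 to 16 fell without control 1 or 4, 2 to 3 rose without control 1, 3 or 4), and with library totals 11 fell and 7 rose (median -0.24). Cyp2c29 fell from 911 to 100.4 CPM (-3.18), Cyp2c54 from 269.6 to 44.2 CPM (-2.61), Cyp2d9 from 1745 to 353 CPM (-2.30) and Cyp3a11 from 7029 to 1616 CPM (-2.12). Like the Ces1 and Ugt2b genes, these have close relatives in sequence, so that the share of each gene is uncertain. Of the glucuronosyl-, sulfo- and glutathione transferases 19 of 49 tested members (62 measured) fell and 0 rose (median -0.88, 11 to 12 fell without control 1, 3 or 4), and with library totals 9 fell and 7 rose (median -0.29), with Ugt3a1 (-1.53), Gstt3 (-1.43) and Gstk1 (-1.02). Of the aldehyde, aldo-keto and hydroxysteroid dehydrogenases 20 of 67 tested members (87 measured) fell and 6 rose (median -0.42, 12 fell without control 1, 2 to 3 rose without control 1, 3 or 4), and with library totals 4 fell and 13 rose (median 0.21), with Hsd17b2, which inactivates sex steroids, from 109.8 to 50.6 CPM (-1.12) and Aldh18a1, of proline synthesis, from 1.75 to 7.81 CPM (2.16). In the nuclear receptor list 7 of 40 tested members (46 measured) rose and 7 fell (median 0.003, 0 to 4 rose without control 1, 3 or 4 or HFD 1, 3 or 4), and with library totals 19 rose and 0 fell (median 0.60). Ppara, the sensor of fatty acids, fell from 497 to 223 CPM (-1.16), Nr1h4 (FXR), that of bile acids, from 119.6 to 65.8 CPM (-0.86), and Nr1i2 (PXR), that of foreign compounds, from 81.04 to 43.3 CPM (-0.90). Of the hepatocyte transcription factors 3 of 20 tested members (21 measured) fell and 1 rose (median -0.16, 1 fell without control 1 or 3), and with library totals 0 fell and 7 rose (median 0.42), with Creb3l3 from 468 to 229.97 CPM (-1.03). Calls of Gstk1, Ppara, Nr1h4, Nr1i2 and Creb3l3 ended with library totals. The call of Cyp2d9 was lost without both control 1 and HFD 3.

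Plasma proteins and growth factors of the liver followed in part. Of the serpins 9 of 32 tested members (50 measured) fell and 7 rose (median -0.14, 2 to 3 rose without control 3 or 4, median 0.12 without both control 1 and HFD 3), and with library totals 6 fell and 11 rose (median 0.45): beside the alpha-1-antitrypsin genes given above, Serpinh1, the collagen chaperone of stromal cells, rose from 5.85 to 22.2 CPM (1.93). Of complement genes 8 of 32 tested members (34 measured) fell and 5 rose (median -0.51, 2 to 3 rose without control 1 or 3 or HFD 1 or 4), and with library totals 3 fell and 6 rose (median 0.07). Masp2, which starts the lectin route, fell from 222 to 109 CPM (-1.03), C3 had a log2 fold change of 0.004 (adjusted p = 0.995), and C5ar1, a receptor of myeloid cells, rose from 1.66 to 7.63 CPM (2.20). Of coagulation genes 11 of 35 tested members fell and 6 rose (median -0.43, 4 to 6 fell without control 1, 3 or 4 or HFD 3 or 4), and with library totals 0 fell and 9 rose (median 0.16), with F13b from 194 to 111 CPM (-0.81) and, in the other direction, the macrophage chain F13a1 from 0.348 to 2.72 CPM (2.95), the urokinase gene Plau from 1.51 to 8.48 CPM (2.49) and its receptor Plaur from 0.331 to 2.97 CPM (3.17). Of acute phase proteins 1 of 29 tested members rose and 1 fell (median -0.01, 0 rose without control 1, 3 or 4 or HFD 1, 2, 3 or 4), and with library totals 5 rose and 1 fell (median 0.58), those being Lcn2 and Serpina3k. Of the hepatokines and growth factors 7 of 33 tested members fell and 3 rose (median -0.10, 1 rose without control 1, 3 or 4 or HFD 1 or 4), and with library totals 1 fell and 8 rose (median 0.51). Igf1, the growth factor under growth hormone, fell from 501 to 229 CPM (-1.13), and Rbp4, the retinol carrier, from 3522 to 1586 CPM (-1.15). Masp2, F13b, Igf1 and Rbp4 were no longer called with library totals.

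Genes of the mitochondrion and of protein turnover were lower by small amounts relative to TMM, and none of these lists was lower by count with library totals. Of the nuclear genes for respiratory chain subunits 51 of 82 tested members (85 measured) fell and 1 rose (median -0.65, 24 to 32 fell without control 1 or 4 or HFD 4), and with library totals 0 fell and 3 rose (median -0.03). Ndufa9, of complex I, fell from 133 to 77.9 CPM (-0.77) and Cox6b1, of complex IV, from 222 to 125 CPM (-0.83). Of the mitochondrially encoded messenger RNAs 8 of 13 tested members fell and 0 rose (median -1.05, 0 to 5 fell without control 1, 3 or 4 or HFD 1, 2 or 4), and with library totals 0 fell and 0 rose (median -0.44). In the citric acid cycle 9 of 24 tested members fell and 1 rose (median -0.49, 2 to 5 fell without control 1, 3 or 4 or HFD 1, 2 or 4), and with library totals 0 fell and 6 rose (median 0.13). Of the mitochondrial ribosomal proteins 16 of 78 tested members fell and 0 rose (median -0.31, 3 to 10 fell without control 1 or 4 or HFD 1, 2 or 4), and with library totals 0 fell and 5 rose (median 0.32). Of the proteasome subunits 28 of 47 tested members (48 measured) fell and 0 rose (median -0.56, 10 to 17 fell without control 1 or 4 or HFD 4), and with library totals 0 fell and 5 rose (median 0.05), with Psma5 from 79.6 to 39.9 CPM (-0.99) and Psmd4 from 161 to 80.3 CPM (-1.001). Of heat shock proteins and chaperonins 16 of 32 tested members fell and 0 rose (median -0.53, 4 to 10 fell without control 1 or 3 or HFD 1, 2 or 4), and with library totals 0 fell and 3 rose (median 0.08), with Hspa8, the constitutive chaperone, from 2124 to 1006 CPM (-1.08). Of autophagy genes 9 of 36 tested members (37 measured) fell and 0 rose (median -0.31, 4 fell without control 1), and with library totals 0 fell and 3 rose (median 0.28), with Atg5 from 37.2 to 23.3 CPM (-0.68). The cytosolic ribosomal proteins lay near the centre of all genes: 1 of 81 tested members (83 measured) fell and 0 rose (median -0.05, 0 fell without control 1), and with library totals 0 fell and 38 rose (median 0.57). Under both scalings their median lay above those of the other lists of this paragraph. Calls of all genes called here ended with library totals.

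Immune genes were higher across several families, but their lists share members and are not separate evidence. Mmp12 and Trem2 stand in both macrophage lists given first here. Mmp12 is counted again among matrix proteases, Trem2 among Fc and phagocytic receptors, and Itgax among both monocyte markers and integrins. Of the monocyte and recruited macrophage markers 11 of 12 tested members rose and 0 fell (median 3.08). Of the genes of lipid-associated macrophages, which gather in fatty tissue, 15 of 24 tested members rose and 1 fell (median 1.38). Trem2, the lipid receptor that marks those cells, was at 0.131, 0.282 and 0.286 CPM in control and 9.04, 4.69, 9.17 and 12.98 CPM in HFD (log2 fold change 5.26 ± 0.47), without overlap. Of the identity genes of resident Kupffer cells 5 of 18 tested members fell and 0 rose (median -0.27, 1 to 3 fell without control 1, 3 or 4 or HFD 2, 3 or 4), and with library totals 0 fell and 6 rose (median 0.32). Cd163, a scavenger of haemoglobin, was at 28.3, 36.2 and 23.6 CPM in control and 8.84, 10.6, 7.90 and 0.911 CPM in HFD (-2.06), and Timd4, a receptor for dying cells, fell from 7.40 to 2.55 CPM (-1.54). In the list of MHC class II and presentation 10 of 15 tested members rose and 0 fell (median 1.46, 3 to 6 rose without control 1, 3 or 4), with H2-Eb1 from 18.1 to 61.3 CPM (1.76) and the protease Ctss from 27.5 to 86.6 CPM (1.66). Of MHC class I genes 4 of 21 tested members (22 measured) rose, a share near that of all genes, and 0 fell (median 0.26, 1 to 2 rose without control 1 or 3). Of the chemokines and receptors 24 of 46 tested members (62 measured) rose and 2 fell (median 1.72, 12 to 15 rose without control 1, 3 or 4). Ccr2, which brings monocytes out of the blood, rose from 0.701 to 5.99 CPM (3.08), Ccr1 from 0.163 to 1.80 CPM (3.47) and Cxcl1, a ligand for neutrophils, from 0.645 to 7.74 CPM (3.58). Of the Fc and phagocytic receptors 16 of 31 tested members (33 measured) rose and 2 fell (median 0.89, 8 to 10 rose without control 1, 3 or 4 or HFD 1 or 4). Of C-type lectins and Siglecs 13 of 33 tested members (47 measured) rose and 2 fell (median 0.73, 5 to 8 rose without control 1, 3 or 4 or HFD 1 or 4), with Clec4d from 0.0537 to 1.31 CPM (4.51). With 1 of the bracketed libraries left out, the call was lost for Cd163 (control 1, 3 or 4 or HFD 1 or 3, adjusted p up to 0.0987) and Timd4 (control 1, 3 or 4, adjusted p up to 0.101). Cd163 and Timd4 were no longer called with library totals, without both control 1 and HFD 3 or in the fit of the 7 libraries alone. The call of Cd163 ended with no filter.

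Several sensors and signals of inflammation rose too. Of the Toll-like receptor, inflammasome and NF-kappaB genes 16 of 35 tested members rose and 1 fell (median 0.83, 7 to 10 rose without control 1, 3 or 4 or HFD 4). The NF-kappaB subunits Relb from 1.05 to 5.76 CPM (2.45) and Nfkb2 from 5.70 to 16.4 CPM (1.53) rose, and so did their brake Tnfaip3 from 4.31 to 15.2 CPM (1.82) and the RNA sensor Tlr13 from 1.69 to 9.62 CPM (2.51). Of the TNF superfamily 11 of 26 tested members (40 measured) rose and 0 fell (median 0.94, 5 to 6 rose without control 1, 3 or 4 or HFD 1 or 4), with Tnfrsf12a, the receptor for TWEAK, from 5.29 to 16.9 CPM (1.68). Of interleukins and their receptors 9 of 39 tested members (65 measured) rose and 3 fell (median 0.65, 3 rose without control 3, 1 fell without control 1 or 4 or HFD 1, 2 or 4), with the alarm cytokine Il33 from 1.03 to 3.17 CPM (1.62) and Il1rap, a receptor chain, from 113 to 50.02 CPM (-1.18). In the interferon response list 13 of 29 tested members rose and 1 fell (median 0.78, 1 to 6 rose without control 1, 3 or 4 or HFD 1), with Usp18 from 3.18 to 9.12 CPM (1.52). Of the transcription factors of myeloid cells 11 of 24 tested members rose and 0 fell (median 1.08, 6 rose without control 1 or 3), with Irf5 from 5.69 to 14.6 CPM (1.36) and Irf8 from 5.42 to 15.9 CPM (1.55). The call of Il1rap was lost with library totals.

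Markers of other cell types moved unequally. Of stellate cell and fibroblast markers 10 of 12 tested members rose and 0 fell (median 1.95), including the proteoglycan Lum from 3.97 to 23 CPM (2.53), Cygb, a globin of stellate cells, from 5.95 to 34.5 CPM (2.54) and Des, desmin, from 3.54 to 9.17 CPM (1.37). Of endothelial markers 1 of 12 tested members rose and 0 fell (median -0.05, 0 rose without control 1, 3 or 4 or HFD 2, 2 rose without HFD 3), and with library totals 6 rose and 0 fell (median 0.54), where Pecam1 had a log2 fold change of 0.24 (adjusted p = 0.179). Of neutrophil markers 6 of 8 tested members (10 measured) rose and 0 fell (median 1.996, 1 to 2 rose without control 1, 3 or 4). Of dendritic cell markers 5 of 10 tested members rose and 0 fell (median 1.35, 2 to 3 rose without control 1, 3 or 4). Of T and NK cell markers 3 of 12 tested members rose and 0 fell (median 1.38, 1 rose without control 3 or 4). Of B and plasma cell markers 1 of 10 tested members rose and 0 fell (median 0.49, 0 rose without control 1, 3 or 4). Of the cholangiocyte markers 2 of 9 tested members (10 measured) rose and 0 fell (median 3.15). Krt19, a keratin of bile ducts, was at 0.735, 0.589 and 0.762 CPM in control and 35.1, 1.80, 0.431 and 9.59 CPM in HFD (log2 fold change 4.07 ± 1.32). Epcam was at 1.02, 1.23 and 0.603 CPM in control and 8.62, 1.95, 0.372 and 23.1 CPM in HFD, a log2 fold change of 3.15 (adjusted p = 0.0665). HFD 1 and HFD 4 were high for both and HFD 3, the library with adrenal RNA, lay below the controls. HFD 1 also held the mucosal epithelium genes given above. Neither the part of that RNA nor the part of the adrenal RNA was tested. The count of cholangiocyte markers called higher rested on single libraries: it was 7 of 9 tested without HFD 3, 1 without HFD 2 and 0 without control 1, 3 or 4 or HFD 1 or 4. Of the mesothelial markers 3 of 6 tested members (8 measured) rose and 0 fell (median 2.52, 0 to 1 rose without control 1, 3 or 4). Of the hepatocyte markers, which check the tissue label, 7 of 15 tested members fell and 0 rose (median -0.95), and with library totals 5 fell and 0 rose (median -0.32). Removal of a single library ended the call of Krt19 (control 1, 3 or 4 or HFD 1 or 4, adjusted p up to 0.146). The call of Krt19 ended without both control 1 and HFD 3, with no filter or in the fit of the 7 libraries alone.

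Matrix genes were higher in large shares. Of the proteoglycans and matricellular proteins 30 of 38 tested members (44 measured) rose and 0 fell (median 1.97, 15 to 17 rose without control 1, 3 or 4). Tnc, the wound protein tenascin C, rose from 1.25 to 11.3 CPM (3.17), Thbs1, which activates TGF-beta, from 2.91 to 21.9 CPM (2.91), Sparc from 45.9 to 144 CPM (1.65) and Loxl1, which cross-links elastin, from 0.595 to 5.46 CPM (3.19), while Fn1, fibronectin, which hepatocytes also make, had a log2 fold change of -0.43 (adjusted p = 0.525). Of the matrix proteases and their inhibitors 33 of 54 tested members (70 measured) rose and 0 fell (median 1.75, 16 to 18 rose without control 1, 3 or 4), among them Adam8, a protease of leukocytes, from 0.159 to 7.92 CPM (5.58), and the collagenase Mmp13 from 0.0450 to 3.88 CPM (6.32). Of the collagen genes 14 of 31 tested members (42 measured) rose and 1 fell (median 1.79, 7 to 9 rose without control 1 or 3), with Col1a2 (3.44), Col6a1 (2.85) and Col5a1 (1.79). Of laminins, nidogens and perlecan 6 of 15 tested members rose and 0 fell (median 1.04, 2 to 3 rose without control 1, 3 or 4 or HFD 4), with Lamb1 (1.53) and Lama2 (2.35). Of integrins 14 of 28 tested members (31 measured) rose and 0 fell (median 0.92, 6 to 7 rose without control 1, 3 or 4), with the leukocyte chains Itgb2 (1.65), Itgam (3.08) and Itga4 (1.62).

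Cytoskeletal and guidance genes were also higher. Of actin, tubulin and intermediate filament genes 19 of 35 tested members (38 measured) rose and 0 fell (median 1.16), with Tagln2, an actin-bundling protein, from 10.3 to 41.5 CPM (2.01), Tubb6, a beta-tubulin, from 2.51 to 13.99 CPM (2.48) and Tpm1, tropomyosin, from 18.7 to 45.3 CPM (1.28). Of annexins, S100 proteins and galectins 14 of 26 tested members (34 measured) rose and 2 fell (median 1.07, 7 to 8 rose without control 1, 3 or 4), with S100a11 from 3.69 to 26.97 CPM (2.87) and Anxa5 from 53.8 to 160.5 CPM (1.58). Of the semaphorins, plexins, ephrins and netrins, cues that steer axons and migrating cells, 25 of 53 tested members (65 measured) rose and 0 fell (median 0.84, 8 to 16 rose without control 1, 3 or 4). Sema4d, made by leukocytes, rose from 1.70 to 15.8 CPM (3.21), Sema3b from 0.435 to 2.57 CPM (2.56), Sema5a from 1.25 to 7.48 CPM (2.58) and the receptor Ephb2 from 0.239 to 5.54 CPM (4.52). Of kinesins and myosins 11 of 54 tested members (70 measured) rose and 1 fell (median 0.75, 5 to 7 rose without control 1, 3 or 4, 19 rose without HFD 3), with Myo5a from 0.892 to 12.5 CPM (3.80) and Myo1f, of leukocytes, from 4.26 to 18.04 CPM (2.08). Of keratins and claudins 5 of 19 tested members (47 measured) rose and 1 fell (median 1.04, 1 to 3 rose without control 1, 3 or 4 or HFD 1 or 4, 9 rose without HFD 3), with Krt8, the keratin of hepatocytes and bile ducts, from 110.3 to 209 CPM (0.92).

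Growth factor pathways were higher in part. Of PDGF, VEGF and CSF genes 10 of 19 tested members (22 measured) rose and 0 fell (median 1.02, 4 to 6 rose without control 1, 3 or 4), with the ligands Pdgfa from 2.04 to 5.53 CPM (1.44), Pdgfb from 1.12 to 4.84 CPM (2.11) and Csf1, the growth factor of macrophages, from 10.5 to 21.2 CPM (1.02). Of TGF-beta, BMP and activin genes 14 of 38 tested members (39 measured) rose and 1 fell (median 0.72, 5 to 8 rose without control 1, 3 or 4), with Ltbp3, which holds latent TGF-beta in the matrix, from 1.32 to 10.8 CPM (3.04), and the co-receptor Tgfbr3 from 22.9 to 43.1 CPM (0.91). Of Notch and Hedgehog genes 10 of 24 tested members (26 measured) rose and 0 fell (median 0.85, 4 to 6 rose without control 1 or 3 or HFD 4), with the Notch target Hey1 from 0.241 to 1.23 CPM (2.35) and the Hedgehog effector Gli3 from 0.628 to 2.86 CPM (2.18). Of Wnt genes 9 of 30 tested members (49 measured) rose and 3 fell (median 0.46, 3 to 5 rose without control 1, 3 or 4, 0 to 1 fell without control 1 or 3), with the ligand Wnt4 from 0.746 to 6.52 CPM (3.12) and Dkk3 from 2.74 to 12.9 CPM (2.23). Of the immediate early genes 13 of 29 tested members (30 measured) rose and 0 fell (median 1.23, 5 to 8 rose without control 1, 3 or 4), with Ier3 from 0.661 to 3.98 CPM (2.59), Gadd45a, of growth arrest, from 0.575 to 3.63 CPM (2.66) and Egr2 from 0.220 to 3.74 CPM (4.07). Of clock genes 4 of 20 tested members rose and 3 fell (median 0.38, 1 rose without control 1 or 3, 1 fell without control 1). The repressors Bhlhe40 from 28.9 to 118 CPM (2.02) and Bhlhe41 from 0.538 to 3.95 CPM (2.88) and the output factor Dbp from 2.02 to 19.9 CPM (3.31) rose, and Hlf, a relative of Dbp, fell from 44.5 to 25.3 CPM (-0.82). The labels do not state the hour of tissue collection. Of these calls, leaving out a library in brackets ended those of Bhlhe40 (control 1 or 3, adjusted p up to 0.0582) and Dbp (control 1 or 3, adjusted p up to 0.0658). Hlf was no longer called with library totals. The call of Dbp ended without both control 1 and HFD 3.

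Subsets of cell division, stress and sugar genes were higher. In the ER stress and ATF4 list the share of rises lay under that of all genes. Of DNA replication and mitosis genes 17 of 40 tested members (41 measured) rose and 0 fell (median 1.49, 5 to 10 rose without control 1, 3 or 4 or HFD 1, 29 rose without HFD 3). Ccnd1, which starts the cycle, rose from 13.9 to 57.7 CPM (2.05), Ccne1 from 0.239 to 1.40 CPM (2.53) and the replication helicase genes Mcm2 and Mcm6 from 2.32 to 6.24 CPM (1.43) and from 2.69 to 9.12 CPM (1.76). Of p53 targets and cyclin-dependent kinase inhibitors 11 of 26 tested members (27 measured) rose and 1 fell (median 0.72, 6 to 7 rose without control 1 or 3), with Eda2r from 0.345 to 2.82 CPM (3.02), the death receptor Tnfrsf10b from 0.408 to 2.45 CPM (2.58) and the inhibitor Cdkn2c from 2.22 to 6.15 CPM (1.47). In the list of ER stress and ATF4 targets 5 of 33 tested members (34 measured) rose and 1 fell (median -0.06, 2 to 3 rose without control 3 or 4 or HFD 1, median 0.17 without both control 1 and HFD 3), and with library totals 10 rose and 0 fell (median 0.51). Psat1, of serine synthesis, rose from 0.544 to 8.82 CPM (4.01), Trib3 from 5.74 to 17.9 CPM (1.65), and Herpud1, of ER protein disposal, fell from 354 to 177 CPM (-1.002). Of NRF2 and glutathione genes 9 of 33 tested members rose and 0 fell (median 0.17, 4 to 5 rose without control 1, 3 or 4). Slc7a11, which imports cystine for glutathione, was at 0.0263, 0.0769 and 0 CPM in control and 3.56, 5.96, 0.608 and 2.05 CPM in HFD (log2 fold change 6.28 ± 1.01), without overlap. The NADPH-making G6pdx rose from 6.45 to 18.6 CPM (1.53) and Pgd from 27.8 to 68.4 CPM (1.30). In glycolysis 8 of 26 tested members (27 measured) rose and 3 fell (median 0.34, 1 fell without control 1). The hexokinase Hk2 rose from 2.17 to 7.26 CPM (1.74), Pfkp from 3.10 to 13.01 CPM (2.07) and the pyruvate kinase Pkm from 16.7 to 66.6 CPM (2.0), forms that are low in normal hepatocytes. In the list of glucose output and glycogen 5 of 21 tested members fell and 3 rose (median -0.29, 3 fell without control 4), and with library totals 1 fell and 6 rose (median 0.33). Fbp1, of glucose synthesis, fell from 1164 to 592 CPM (-0.97), and Gyg, which primes glycogen, rose from 3.01 to 7.47 CPM (1.31). Removal of a single library ended the call of Herpud1 (control 1, adjusted p up to 0.062) and Fbp1 (control 4, adjusted p up to 0.0744). Herpud1 and Fbp1 were no longer called with library totals. The call of Herpud1 ended without both control 1 and HFD 3.

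Transport genes had calls both ways. For the solute carriers both shares, and for the ABC transporters the share of rises, lay near those of all genes. Of the solute carriers 50 of 271 tested members (361 measured) rose and 33 fell (median 0.04, 23 to 27 rose without control 1, 3 or 4, 20 to 21 fell without control 1, 3 or 4), among them the cationic amino acid carrier Slc7a1 from 1.06 to 9.96 CPM (3.22) and the liver carrier Slc25a47 of mitochondria from 1278 to 394 CPM (-1.70). Of ABC transporters 7 of 41 tested members (44 measured) rose and 7 fell (median 0.06, 4 rose without control 3, 3 to 4 fell without control 1 or 4 or HFD 4), and with library totals 16 rose and 1 fell (median 0.63), with the exporters Abcc1 from 3.56 to 10.5 CPM (1.55), Abcc5 from 3.27 to 10.97 CPM (1.75) and Abcb1a from 2.63 to 11.6 CPM (2.13). Of the lysosomal proteases, pump and membrane genes 10 of 46 tested members rose and 1 fell (median 0.04, 6 rose without control 1 or 3), with Cd63, a tetraspanin, from 4.55 to 43.9 CPM (3.27) and Cd68, of macrophages, from 12.5 to 32.6 CPM (1.38). Of metallothioneins, selenoproteins and ferritins 6 of 28 tested members (32 measured) rose and 3 fell (median 0.01, 1 to 3 rose without control 1 or 3, median -0.19 without both control 1 and HFD 3). Gpx3, a secreted glutathione peroxidase, was at 6.91, 4.10 and 4.98 CPM in control and 15.1, 18.9, 101 and 99.3 CPM in HFD (3.46). Of the ferritin chains, Fth1 hardly differed between the groups (adjusted p = 0.998) and Ftl1 had a log2 fold change of -0.10 (adjusted p = 0.855). Leaving out 1 library ended the call of Gpx3 (control 3, adjusted p up to 0.0565). Gpx3 was no longer called without both control 1 and HFD 3.

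The 4 HFD livers also differed among themselves. Over the 7270 genes of at least 10 CPM on average, the median SD of log2 CPM was 0.228 in HFD and 0.191 in control, and 215 genes had an SD of at least 1 in HFD against 83 in control. Genes that singled out 1 library were looked for after their values were seen, so they carry no test, and their values are CPM of library totals. HFD 4, the library farthest along the first component, held 145 CPM of Cyp2a4 and 87.7 CPM of Cyp2b9, P450 genes that are higher in female than in male mouse liver, where the other 6 libraries reached 7.95 and 4.59 CPM. It also held 378 CPM of Spp1 (osteopontin) and 125 CPM of the stellate cell integrin Itga8, beside at most 41.1 and 25.7 CPM. Slco1a1, a transporter higher in male liver, was at 179, 187 and 246 CPM in control and 136, 63.1, 25.3 and 0.309 CPM in HFD and had a log2 fold change of -1.86 (adjusted p = 0.267), so that the Mup genes and Slco1a1 were lowest in the same library. HFD 2 held 1238 CPM of Fasn, 146 CPM of Angptl8, a feeding-induced hormone, 121 CPM of the lipogenic Thrsp and 132 CPM of the hormone gene Fgf21, beside at most 516, 25.9, 33.4 and 58.9 CPM. Mitosis genes peaked there as well, with 14 CPM of Cdc20 and 11.8 CPM of Kif20a against at most 3.55 and 3.62 CPM, both next highest in HFD 1. In HFD 1 the mucosal genes given above were joined by Duox2 at 28.5 CPM, Gabrp at 27.01 CPM and Olfm4 at 18.1 CPM, beside at most 0.409, 0.990 and 0.111 CPM.

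**Figure D5:**
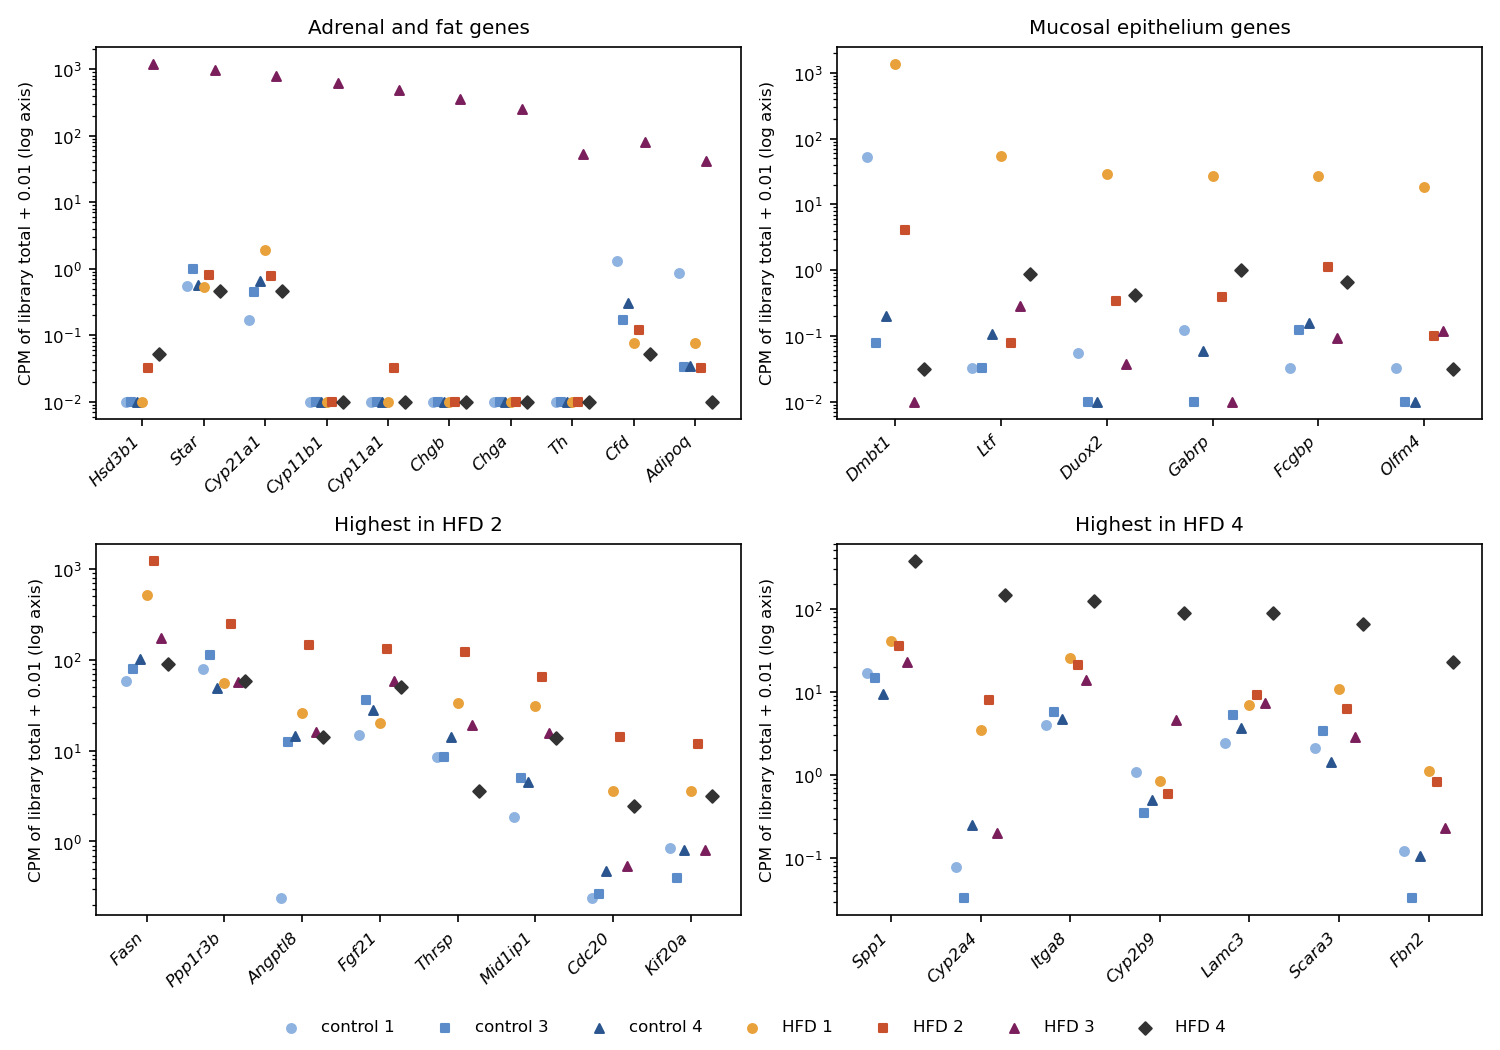
CPM of library totals, with 0.01 added so that values of 0 can be drawn on the log axis, for genes that single out 1 library, with 1 symbol per library. Adrenal and fat genes stand out in HFD 3 (Hsd3b1 at 1197 CPM) and mucosal genes in HFD 1 (Dmbt1 at 1362 CPM). Lipogenic and mitosis genes stand out in HFD 2 (Fasn at 1238 CPM), and Cyp2a4, Cyp2b9, Spp1 (378 CPM) and stromal genes in HFD 4.

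Values in the treated mice are given for 6 genes of large fold or small p, chosen after their values were seen and with no test, since these mice share the HFD diet and the estimate of the spread. Lcn2 in the same mice is given above. In HFD plus HQHF 1, 2 and 4 Mmp12 was at 0.402, 0.496 and 0.758 CPM, Gpnmb at 0.172, 0.235 and 0.994 CPM and Col1a1 at 1.87, 2.01 and 8.08 CPM. Among genes lower in HFD, Acsl1 was at 1852, 1604 and 3236 CPM, Ces1d at 505, 679.9 and 699 CPM and Mup7 at 20089, 6695 and 10956 CPM.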

How the data were processed

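Long RNA of mouse liver was sequenced after ribosomal RNA removal with a strand-keeping kit, per the labels' protocols. The authors deposited whole-number read counts per gene in 1 table. The submitters' processing notes name HISAT2, RSEM and the build GRCm39 without their roles, and how counts were assigned to strands or to similar genes is not given in the sources used here. Columns were matched to libraries by the labels, and 0 columns belonged to no sample. Small RNA libraries were not used.

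Libraries with Alb under 1000 CPM of the total were left out. The members, the gene lists and the rules for naming genes were chosen with earlier results of these data known. Counts of the 10 remaining libraries were filtered (filterByExpr), scaled by TMM and fitted with group means in edgeR 4.0.16 (quasi-likelihood F test, R 4.3.3), with HFD against control as the contrast and a Benjamini-Hochberg adjusted p under 0.05 as a call. All fits ran on all genes, and the script was tested on simulated data. The SE was taken from the log2 fold change and its F. Among called genes without overlap between groups, the 10 largest folds and 8 smallest p in each direction at 10 CPM or more were named. So were the 8 largest gains and losses in CPM among them. Without the condition of a call or of no overlap, the 4 smallest p of each list and any member of 1000 CPM or more were named. The same holds for the 10 largest spreads within a group at 10 CPM or more. Not all of these are printed. Other genes that single out a library were chosen after their values were seen. P-values measure the spread between these mice. DESeq2 1.42.0, other scalings, filters, library choices and thresholds were tried as alternatives, and leaving out control 1 and HFD 3 together was added after the data were seen.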

Additional observations from a re-analysis of the deposited data

Results flagged for a closer look

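Of 222 genes named in the text, 12 had 1 HFD library far from the other 3, by a gap over range above Dixon's 95% critical value for 4 samples, where chance flags about 1 in 20 groups. HFD 1 stood apart as the highest library in Clec4d, at 2.32 CPM. HFD 3 stood apart as the highest library in Cyp2c54 (90.8 CPM), Psmd4 (108 CPM) and Atg5 (27.5 CPM). HFD 4 stood apart as the highest library in Gnmt (811 CPM), Cygb (71.8 CPM), Dkk3 (25.7 CPM), Col6a1 (126 CPM), Lama2 (48.5 CPM) and Svep1 (64.3 CPM). HFD 3 stood apart as the lowest library in Alb, at 24873 CPM. HFD 4 stood apart as the lowest library in Ftl1, at 1202 CPM. Groups of 3 controls were not looked at in this way.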

How the results depend on the processing

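None of the 2257 higher and 1368 lower calls turned into a call of the other direction under any alternative run. Values outside 1.5 times were as follows. With library totals 7041 genes were called higher and 154 lower, and 7702 and 214 showed no overlap. Upper quartile factors left 898 lower. An adjusted p under 0.01 left 614 higher and 335 lower, and a 2-fold minimum 335 lower. Without both control 1 and HFD 3, a setting chosen after seeing the data, 1453 were higher. With 1 library left out, calls ran from 862 to 2349 higher and from 617 to 1533 lower. With all 12 libraries, among them control 2 without liver RNA, 7 were higher and 0 lower by edgeR. Of the 206 named genes called, 173 were then no longer called, and the sign of the log2 fold change turned, with no call, in Psat1 (-0.44), Ier3 (-0.997), Serpinh1 (-1.01), Myo5a (-0.89), Ccr2 (-1.06), Egr2 (-0.67), Abcc1 (-0.00455), Ccr1 (-0.67), Hk2 (-0.59), G6pdx (-0.39), Ltbp3 (-0.32), Plau (-0.92), Ahnak (-1.70), Loxl1 (-0.26), Thbs1 (-2.34), Sparc (-0.0355), Lpl (-2.81), Cdkn2c (-0.87), Gyg (-0.82), Hey1 (-0.0381), Aebp1 (-0.70), F13a1 (-5.14), Sema5a (-1.23), Lamb1 (-0.50), Lama2 (-0.47), Svep1 (-0.48), Dcn (-1.05), Cd36 (-2.24) and C1qc (-0.27). The cause was not tested for these genes. Fth1, not called with TMM, was called higher by library totals (log2 fold change 0.61, adjusted p = 0.0369), where the shift of all genes is of this size. Of the same 206 genes, library totals ended 34 calls, DESeq2 1, RLE factors 1, no filter on low counts 5, the fit of the 7 libraries alone 8 and leaving out 1 library 3 to 22, while upper quartile factors and the stricter filter ended 0. The log2 fold change of Ccnb1ip1, not called with all 7 libraries, ran from -1.08 to 3.16 with 1 library left out, and the highest value, without control 4, was called (adjusted p = 0.0439). Replicate numbers do not pair the libraries: the deviations of same-numbered HFD and control libraries correlated at 0.088, -0.054 and -0.041 for numbers 1, 3 and 4. The fit with the replicate block gave 1888 higher and 952 lower and ended 7 of those calls. By library totals or over the 500 genes of largest variance, the first principal component still separated the diets (64.6% and 55.7% of the variance). The promoter comparison over all called genes was not run, because under 80% had a window. Depth limits genes of few reads: a count of 0 allows up to 3.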

Other observations

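Ribosome-related and nuclear lists moved little. Of the translation initiation and elongation factors 10 of 66 tested members (72 measured) fell and 3 rose (median -0.23, 1 to 6 fell without control 1 or 4 or HFD 1 or 4, 1 rose without control 1 or 3), and with library totals 1 fell and 17 rose (median 0.36), with Eif1, of start codon choice, from 530.3 to 248 CPM (-1.10). Of aminoacyl-tRNA synthetases 2 of 37 tested members fell and 0 rose (median -0.07, 0 to 1 fell without control 1 or 3 or HFD 4), and with library totals 0 fell and 18 rose (median 0.55). Of the SR and hnRNP splicing factors 5 of 43 tested members (44 measured) fell and 0 rose (median -0.19, 2 to 3 fell without control 1 or 3 or HFD 1, 2 or 4), and with library totals 0 fell and 10 rose (median 0.40), with U2af1 from 41.5 to 22.4 CPM (-0.89). Of histone genes 4 of 52 tested members (75 measured) rose and 0 fell (median 0.47, 2 rose without control 1 or 3 or HFD 1 or 4, 10 rose without control 4), with the replication-linked linker histones H1f3 from 3.49 to 18.9 CPM (2.44) and H1f5 from 0.331 to 2.42 CPM (2.89). Calls of Eif1 and U2af1 ended with library totals.

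Markers of cells that a liver piece can carry along gave few calls. Of red blood cell markers 1 of 9 tested members (10 measured) fell and 0 rose (median 0.40, 0 fell without control 1 or 4), and with library totals 0 fell and 0 rose (median 1.01). Of adipocyte markers 1 of 5 tested members (10 measured) rose and 0 fell (median 3.57, 0 rose without control 3 or 4, median -0.55 without HFD 3, median -0.10 without both control 1 and HFD 3). The adipocyte list held 0.0365% of the counts in HFD 3, the library with fat RNA, and 0.00257 to 0.00428% in the other 6. Of pancreatic acinar markers 1 of 4 tested members (10 measured) fell and 0 rose (median -6.85, 0 fell without control 1 or HFD 1, 2, 3 or 4, 2 fell without control 4, median 3.13 without both control 1 and HFD 3), and with library totals 0 fell and 0 rose (median -6.32). That list held 0.228% of the counts in control 1 and 0.000567 to 0.00278% in the other 6. Of another, shorter Kupffer cell marker list 4 of 12 tested members fell and 2 rose (median -0.03, 0 to 2 fell without control 1, 3 or 4 or HFD 2, 3 or 4, median 0.39 without both control 1 and HFD 3), and with library totals 0 fell and 6 rose (median 0.55), with the complement genes C1qb (0.82) and C1qc (0.77), shared with other macrophages, on the rising side. Some genes spread widely between the controls. Ccnb1ip1 was at 5.99, 35.6 and 752 CPM in control and 201, 133, 337 and 79.1 CPM in HFD. H4c4 was at 1.10, 7.84 and 69.02 CPM in control and 20.1, 13.1, 29.8 and 6.70 CPM in HFD. The immediate early gene Junb was at 0.184, 3.69 and 14.4 CPM in control and 16.2, 6.56, 20.2 and 13.99 CPM in HFD. Their groups overlapped and none was called with all 7 libraries. With 1 of the bracketed libraries left out, the call was lost for C1qb (control 1, 3 or 4 or HFD 1 or 4, adjusted p up to 0.119) and C1qc (control 1 or 3 or HFD 1 or 4, adjusted p up to 0.131). C1qb and C1qc were no longer called without both control 1 and HFD 3 or in the fit of the 7 libraries alone.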
